A study of Rattus norvegicus with 5 samples.

Results

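The laminin and integrin subunit genes are the rat genes whose symbols name a laminin alpha, beta or gamma chain or an integrin alpha or beta subunit. They were picked by a pattern on the symbol, with no use of their levels. The pattern found 37 of the 33014 gene symbols in the combined table: 11 laminin chain genes, 18 integrin alpha genes and 8 integrin beta genes. Their RNA was measured by RNA-seq in 5 cultures of cells from dorsal root ganglia of rats, which hold sensory neurons and their glia beside the spinal cord. The ganglia came from wild-type (WT) Sprague Dawley rats at postnatal day 10, from 1 litter of 10 pups per the labels, and the dispersed cells were plated at 5000 per well. PBS, used as vehicle, was added to every culture at 1 day, the cells stayed in culture for 8 days, and each library pooled the RNA of 3 wells. The labels give 1 group, with replicates 1 to 5, and do not say that these came from separate litters or preparations, so the spread and the p-values below measure only these libraries and may be technical.

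Laminins are secreted trimers of 1 alpha, 1 beta and 1 gamma chain that form the sheet-like core of basement membranes. In peripheral nerve, Schwann cells make a basement membrane rich in laminins with the alpha2 or alpha4 chain together with beta1 and gamma1, and need it to sort and myelinate axons. Integrins are paired receptors of 1 alpha and 1 beta subunit that hold cells to laminin, collagen, fibronectin and other cells. The alpha subunit mostly sets the ligand, and beta1 pairs with most alphas, beta2 with the alphas of white blood cells, and beta4 with alpha6 alone.

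Levels are given as TPM, a length-corrected share of each library's transcripts scaled to a total of 1000000, as mean ± SD over the 5 libraries unless stated otherwise. A gene was called detected at 1 TPM or more in every library. By this rule 27 of the 37 members were detected, against 41.3% of all genes in the table. The median member stood at 13.8 TPM, and the median gene of the table at 0.297 TPM. Libraries held between 21596608 and 27913098 estimated reads. As the labelled tissue would have, all 8 neuronal, 8 Schwann cell and 4 satellite glia markers on the lists used were detected. So were all 7 fibroblast and 12 macrophage markers, 6 of 8 mural and 3 of 8 endothelial markers. Because each library mixes every cell of its wells, a level cannot be assigned to a cell type, and fewer cells of a type cannot be told apart from less RNA per cell.

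The start regions of 3 members are given as examples: Itgb1 as the highest member, Lama4 as the highest alpha chain gene and Itgam as a gene of white blood cells. The 250 bases before the gene start were taken from RefSeq on the build GRCr8, which is newer than the build used for the libraries, and entries matched 28 of the 37 members. Capitals mark GGGCGG (the GC box bound by Sp1-type factors) in Itgb1, TATAAA (the letters of a TATA box) in Lama4 and GAGGAA (an Ets-type core) in Itgam, each on either strand.
Itgb1 (chr19:73602027-73602276, plus strand): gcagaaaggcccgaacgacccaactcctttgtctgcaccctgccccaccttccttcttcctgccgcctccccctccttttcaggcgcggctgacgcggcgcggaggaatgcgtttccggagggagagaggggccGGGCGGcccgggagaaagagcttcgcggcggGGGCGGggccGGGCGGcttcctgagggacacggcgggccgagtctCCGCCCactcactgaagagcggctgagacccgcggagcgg
Lama4 (chr20:43946648-43946897, plus strand): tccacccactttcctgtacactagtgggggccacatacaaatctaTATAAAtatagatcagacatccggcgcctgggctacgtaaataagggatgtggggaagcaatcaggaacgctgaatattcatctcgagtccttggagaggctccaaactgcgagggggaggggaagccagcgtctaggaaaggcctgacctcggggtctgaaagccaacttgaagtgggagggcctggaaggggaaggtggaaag
Itgam (chr1:192089342-192089591, plus strand): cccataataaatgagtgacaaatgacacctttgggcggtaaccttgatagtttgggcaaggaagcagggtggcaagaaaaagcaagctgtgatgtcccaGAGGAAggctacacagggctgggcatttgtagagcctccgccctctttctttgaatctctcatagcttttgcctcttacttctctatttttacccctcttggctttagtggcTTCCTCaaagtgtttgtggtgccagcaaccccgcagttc

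Over both strands and with overlapping matches counted, GGGCGG was found 4 times before Itgb1, TATAAA 1 time before Lama4 and GAGGAA 2 times before Itgam. GGGCGG was in 14 of the 28 member windows and in 30.5% of all 33469 windows of that length. Among the 20 detected members with a window it was in 12, and among the 8 undetected ones in 2. The shares among all detected and all undetected genes were not counted, so this split cannot be set against other genes. GAGGAA was in 11 member windows and 23.3% of all windows, TATAAA in 2 and 12.9%, and ACAAAG, a Sox-type core, in 4 and 16.3%. Only 1 motif is marked in each sequence above. GGGCGG was also found 2 times before Itgam, and GAGGAA and ACAAAG 1 time each before Itgb1. The median share of G and C was 58.2% over the member windows and 51.2% over all windows. These are matches of letters in a short window and show no binding.

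Among the laminin alpha chains, Lama4 had the highest level in every library. Lama4, the alpha chain of Schwann cell, vessel and fat cell basement membranes, was at 376, 321, 295, 273 and 287 TPM in replicates 1 to 5. Lama2, the alpha chain of nerve and muscle basement membranes, was at 169.97, 157, 154, 137 and 144 TPM. Lama5, the alpha chain of many mature basement membranes, was at 40.1, 36.1, 34.2, 33.4 and 32.6 TPM. For all 3 genes replicate 1 was the highest library, and the ranges of the 3 genes did not overlap. Lama3, the alpha chain of skin-type laminin, was at 4.67 ± 0.368 TPM, a level made uncertain by an overlapping gene at 1.54 TPM, and Lama1, the alpha chain of the earliest embryonic basement membrane, at 1.37 ± 0.142 TPM. All 5 alpha chain genes were thus detected, and Lama4 held 61.5% ± 1.22 and Lama2 30.3% ± 1.01 of their summed TPM.

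Level differences between members were tested within libraries as log2((TPM + 0.1)/(TPM of a reference member + 0.1)) with limma against 0, fitted over all 18987 genes with mean TPM of at least 0.1. Values after ± are SDs over the 5 libraries. This scale understates the ratio of low genes. With Lama4 as the reference, all 4 other alpha chain genes were called lower, but so were 97.1% of all genes tested, so the sizes say more than the calls. Lama2 was 2.03-fold lower (log2 -1.02 ± 0.08, limma adjusted p = 3.55e-06, lower in 5 of 5 libraries). Lama5 was 8.75-fold lower (log2 -3.13 ± 0.07, limma adjusted p = 2.78e-09). Lama3 and Lama1 were 64.9-fold and 211-fold lower. The ratio of Lama2 to Lama4 varied little from library to library, between -1.14 and -0.94 in log2.

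Lamb1 led the beta chains and Lamc1 was the only detected gamma chain. Lamb1, the common beta chain, was at 380.2, 399, 384, 360.2 and 369.5 TPM and had the second-highest mean of all members. Lamb2, the beta chain of nerve-muscle synapses and of kidney and vessel basement membranes, was at 107, 95.6, 92.2, 92.2 and 90.2 TPM, 3.97-fold lower (log2 -1.99 ± 0.10, limma adjusted p = 6.77e-08, 5 of 5 libraries). Lamc1, the gamma chain of most laminins, was at 123, 139, 132, 132 and 134 TPM and lay 2.87-fold below Lamb1 (log2 -1.52 ± 0.07, limma adjusted p = 8.36e-08). Of all genes tested, 97.8% were called lower than Lamb1 and 92.8% lower than Lamc1. Lamb3 and Lamc3 were low, at 0.111 ± 0.0465 and 0.245 ± 0.0969 TPM. They were backed by 32 and 115 estimated reads over the 5 libraries, above the floors of 0.0106 and 0.006401 TPM that 3 reads would give, which cover counting error only. Lamb3 encodes a beta chain of the laminin of skin and other epithelia, and Lama3 exceeded it in every library. Of the 6 epithelial markers 3 were detected, led by Cdh1 at 12.98 ± 1.99 TPM, and Epcam stood at 0.693 ± 0.229 TPM.

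**Figure D1:**
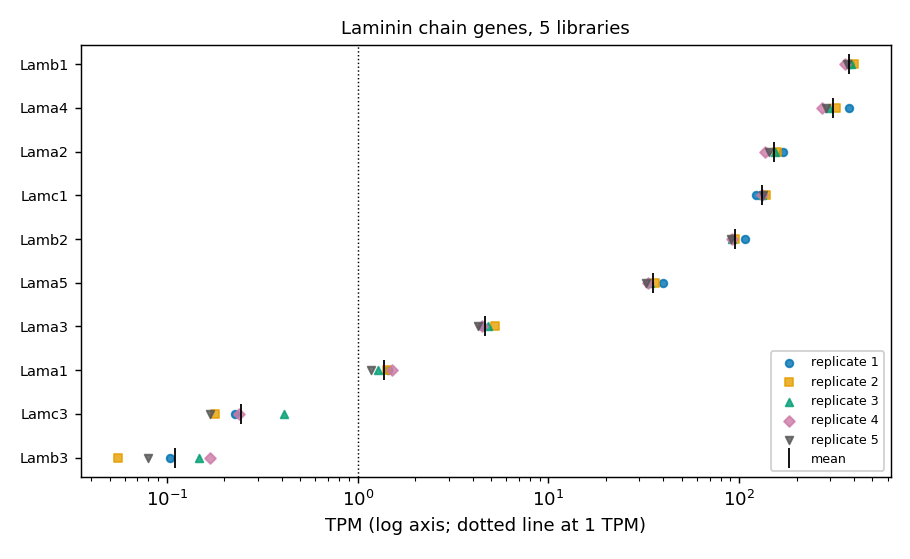
TPM of 10 laminin chain genes on a log axis, 1 symbol per library and a bar at the mean, with a dotted line at 1 TPM. The 8 genes right of the line in all libraries include all 5 alpha chains, while Lamb3 and Lamc3 lie left of it in every library.

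Summed over genes, alpha and beta chain transcripts were near each other and gamma chain transcripts were fewer. The alpha chains summed to 592, 521, 489.9, 449 and 469 TPM in replicates 1 to 5. The beta chains summed to 488, 494, 477, 453 and 459.8 TPM, and the gamma chains to 123, 139, 133, 132 and 134 TPM. The gamma sum, 99.7% ± 0.0798 of it from Lamc1, was 26.5% ± 3.36 of the alpha sum and 27.9% ± 1.59 of the beta sum, and it was the smallest of the 3 sums in every library. The alpha sum was 121% of the beta sum in replicate 1 and between 99.2% and 105% in the other libraries. Lama4 alone exceeded Lamc1 by 2.34-fold (log2 1.23 ± 0.22, limma adjusted p = 2.33e-05, higher in 5 of 5 libraries), where 6.09% of all genes tested were called higher than Lamc1. These are transcript levels, and they rest on the transcript lengths used by the authors: 7636 bases for the 1 Lamc1 transcript and 6051 bases for the 1 Lama4 transcript.

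Receptors that bind laminin made up the largest part of the integrin alpha transcripts. Itga7, a laminin receptor subunit best known from muscle, was at 302, 324, 302, 309 and 315 TPM, the highest of the 18 alpha genes in every library. Itga6, the laminin receptor subunit that pairs with beta1 or beta4, was at 92.98, 103, 106, 102 and 102 TPM. Itga3, a receptor subunit for laminins with alpha3 or alpha5 chains, was at 28.3, 29.5, 27.8, 29.3 and 27.1 TPM. The 3 ranges did not overlap, and Itga7 was 3.07-fold above Itga6 (log2 1.62 ± 0.07, limma adjusted p = 9.14e-08, 5 of 5 libraries) while Itga3 was 3.55-fold below it (log2 -1.83 ± 0.09, limma adjusted p = 9.37e-08). Among all genes tested, 8.22% were called higher and 90.2% lower than Itga6. The 3 genes together held 68.03% ± 0.722 of the summed TPM of the alpha genes, and Itga7 held 70.6% ± 0.788 of the laminin-binding sum.

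Itgb1 was the highest of all 37 members. Itgb1, the common partner subunit, was at 539.6, 537, 540.1, 537 and 523 TPM, a range of 1.03-fold between libraries. Itgb4, the partner of alpha6 that is known from Schwann cells and from hemidesmosomes of skin, was at 207, 225, 209.9, 194 and 205 TPM. Itgb8, a partner of alphav that can release active TGF-beta, was at 199, 195, 195, 174 and 180.05 TPM. Itgb4 exceeded Itgb8 in all 5 libraries, but their ranges overlapped. The other detected beta genes were Itgb5 at 30.1 ± 1.94, Itgb2 at 16.1 ± 3.24 and Itgb3 at 13.8 ± 1.16 TPM. Itgb7 and Itgb6 were not detected, at 0.0863 ± 0.0467 and 0.0387 ± 0.0112 TPM from 16 and 11 estimated reads in all, and both levels are uncertain: in the reference annotation Itgb7 overlaps Znf740, at 35.8 TPM, and Itgb6 overlaps a gene at 0.0576 TPM. Itgb1 held 53.9% ± 0.839, Itgb4 21.002% ± 0.827 and Itgb8 18.995% ± 0.753 of the summed TPM of the 8 beta genes.

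With Itgb1 as the reference, all 5 beta genes that entered the test were called lower, as were 98.6% of all genes tested. Itgb4 was 2.57-fold lower (log2 -1.36 ± 0.08, limma adjusted p = 1.80e-07) and Itgb8 2.84-fold lower (log2 -1.51 ± 0.07, limma adjusted p = 9.91e-08), each in 5 of 5 libraries. Itgb5, Itgb2 and Itgb3 were 17.8-fold, 33.6-fold and 38.7-fold lower. Itga6 stood at 48.5% ± 3.13 of the TPM of Itgb4, so transcripts of the beta4 gene exceeded those of its alpha partner gene in every library.

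Of the alpha genes whose products pair with beta1, the 11 genes Itga1 to Itga11 summed to about the level of Itgb1 itself. These 11, which leave out the alphav, alphaIIb and leukocyte genes, summed to 506, 550.3, 528, 529 and 531 TPM. That is 98.8% ± 3.46 of the Itgb1 level, between 93.8% and 103%, above it in 2 libraries and below it in 3. Some of these subunits have other partners too, alpha6 with beta4 and alpha4 with beta7, so the sum does not give the number of pairs. Alphav, which was left out, also pairs with beta1, and Itgav was at 92.4 ± 5.60 TPM. The nearness of the sum to Itgb1 thus depends on the genes chosen.

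**Figure D2:**
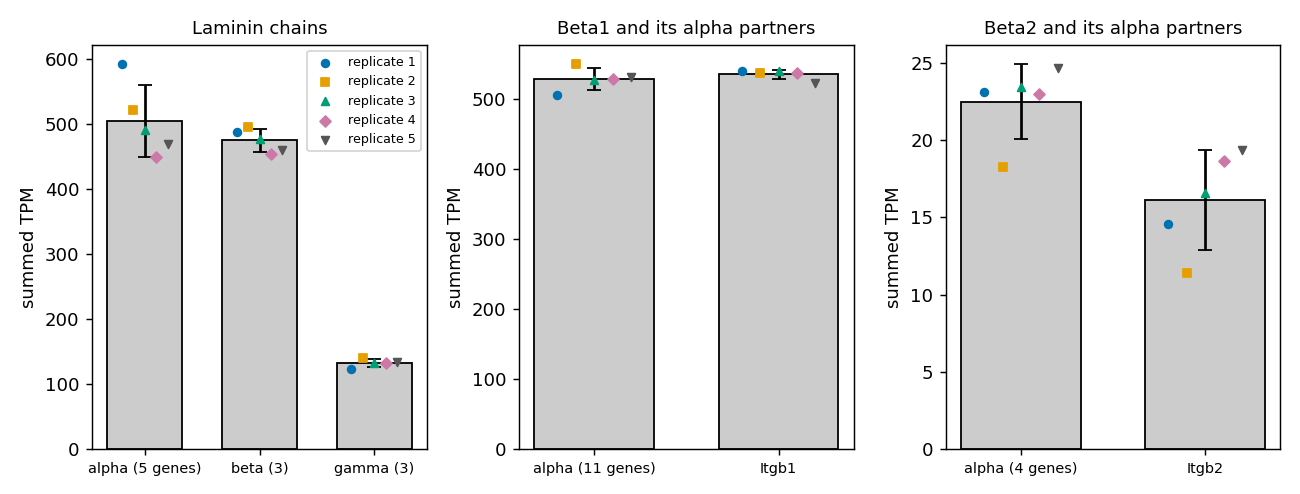
Summed TPM of laminin chain classes (left), of Itgb1 and 11 alpha genes that pair with it, without Itgav (middle), and of Itgb2 and its 4 alpha partners (right), as means with SD bars over 5 libraries and 1 symbol per library. The gamma chain bar, at 132 TPM, is the lowest of the laminin panel, and the bars of the middle panel are near each other at 529 and 535 TPM.

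Alphav was the most abundant of the integrins that bind the RGD motif of fibronectin, vitronectin and the TGF-beta propeptide. Itgav was at 82.9, 95.3, 96.3, 91.7 and 95.8 TPM, with replicate 1 the lowest. Itga5, the main fibronectin receptor subunit, was at 17.3, 17.3, 16.5, 16.5 and 16.7 TPM, and Itga8, the receptor subunit for nephronectin, at 5.15 ± 0.347 TPM. Itga5 was 5.44-fold below Itgav (log2 -2.44 ± 0.11, limma adjusted p = 4.83e-08) and Itga8 17.6-fold below it (log2 -4.14 ± 0.09, limma adjusted p = 7.36e-09), in 5 of 5 libraries each, with 89.0% of all genes called lower than Itgav. Itga2b, the platelet fibrinogen receptor subunit, reached 1 TPM in 1 library and was at 0.771 ± 0.211 TPM. Of 7 platelet markers 2 were detected, with Pf4, which macrophages can also carry, highest, and the defining platelet genes Ppbp and Gp9 were at 0 in every library.

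Of the beta partners that alphav has besides beta1, Itgb8 had the highest level. It held 81.1% ± 1.67 of the summed TPM of Itgb3, Itgb5, Itgb6 and Itgb8, and exceeded Itgb5 by 6.25-fold (log2 2.64 ± 0.16, limma adjusted p = 1.27e-07, 5 of 5 libraries). Itgb3, the partner of alphav in the vitronectin receptor, was 2.18-fold below Itgb5 (log2 -1.12 ± 0.14, limma adjusted p = 4.29e-06). Among all genes 25.8% were called higher and 69.7% lower than Itgb5. Itgav itself stood at 39.8% ± 3.02 of the sum of these 4 genes.

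Collagen receptor and alpha4 or alpha9 genes stood at lower levels. Itga1, a receptor subunit for basement membrane collagen, was at 16.2, 21.8, 22.5, 21.8 and 20.2 TPM, lowest in replicate 1. Itga2, a receptor subunit for fibrillar collagen, was at 6.89, 7.78, 7.71, 7.24 and 7.499 TPM, 2.72-fold below Itga1 (log2 -1.44 ± 0.14, limma adjusted p = 1.15e-06, 5 of 5 libraries, with 60.3% of all genes called lower). Itga11, a collagen receptor subunit of fibroblasts, reached 1 TPM in 2 libraries and was at 0.892 ± 0.2905 TPM. Itga10, a collagen receptor subunit of cartilage, was at 0.0501 ± 0.04495 TPM from 16 estimated reads in all. Itga4, a receptor subunit for fibronectin and Vcam1 that white blood cells and neural crest derivatives carry, was at 23.6, 25.5, 25.6, 23.8 and 24.5 TPM, and Itga9, a receptor subunit for tenascin, at 13.5, 14.3, 14.6, 13.2 and 13.5 TPM. Itga4 exceeded Itga9 by 1.77-fold (log2 0.83 ± 0.02, limma adjusted p = 7.45e-07, 5 of 5 libraries, with 42.0% of all genes called higher than Itga9), and this ratio had the smallest SD of the 26 tested. In the reference annotation Itga1 overlaps Pelo, which was at 46.9 TPM, so the level of Itga1 is uncertain where the strand setting is not known.

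**Figure D3:**
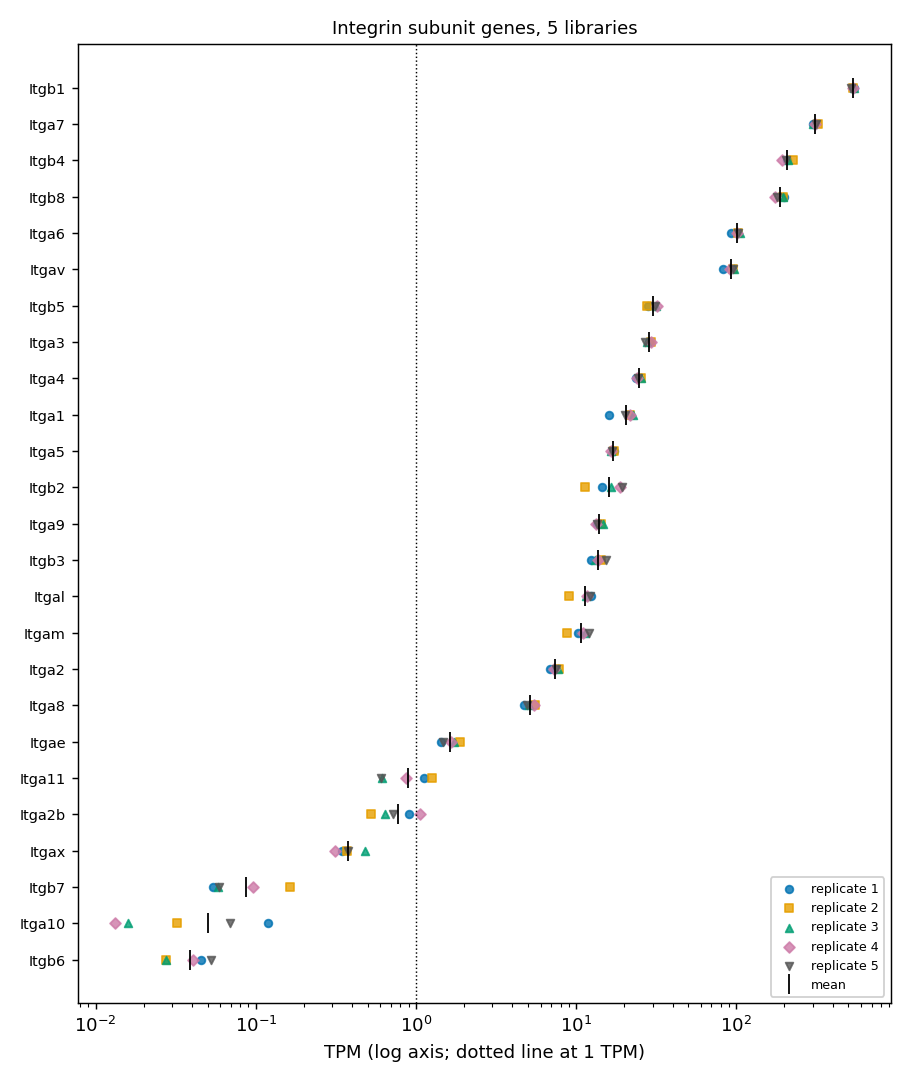
TPM of 25 integrin genes on a log axis, 1 symbol per library and a bar at the mean, with a dotted line at 1 TPM. Itgad, with 1 read in all, is left out. Itgb1 and Itga7 lie highest, and Itgb2, Itgal and Itgam have their lowest symbol in replicate 2.

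The integrins of white blood cells were present at low levels, and Itgb2, Itgal and Itgam were, like the macrophage markers, lowest in replicate 2. Itgb2, their common beta subunit, was at 14.5, 11.4, 16.6, 18.7 and 19.3 TPM. Itgal, the alpha subunit of LFA-1 on lymphocytes and other white blood cells, was at 12.4, 9.09, 11.6, 11.6 and 12.3 TPM, and Itgam, the alpha subunit of the complement receptor Mac-1 on macrophages and microglia, at 10.3, 8.81, 11.4, 11.04 and 12.02 TPM. The ranges of Itgal and Itgam overlapped. The difference between Itgal and Itgam was not called by limma (log2 0.09 ± 0.10, limma adjusted p = 0.339), although Itgal was higher in 5 of 5 libraries and 94.1% of all genes were called different from Itgam. Itgax, the alpha subunit typical of dendritic cells, was 22.7-fold below Itgam (log2 -4.51 ± 0.22, limma adjusted p = 8.44e-09, with 48.6% of all genes called lower) at 0.377 ± 0.0625 TPM. Itgad had 1 estimated read in all, in replicate 2, and its mean lay below the floor of 0.0123 TPM set by 3 reads in all 5 libraries together. Itgae, the alpha subunit of resident lymphocytes that binds Cdh1, was at 1.64 ± 0.186 TPM, highest in replicate 2, and its gene overlaps Haspin, which was at 3.43 TPM. Reads that Itgam, Itgax and Itgad might share were divided by the authors' model, so the levels of Itgax and Itgad are uncertain.

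The 12 macrophage markers, all of them detected, summed to 1851, 1428, 2122, 2076 and 2254 TPM, also lowest in replicate 2. Relative to this sum, Itgb2 stood between 0.782% and 0.8997%, a range of 1.15-fold in place of 1.699-fold in TPM. Itgam had a range of 1.16-fold in place of 1.36-fold, and Itgal one of 1.23-fold in place of 1.37-fold. Itgax, not detected and lowest in replicate 4, went from 1.53-fold in TPM to 1.73-fold relative to the sum. The sums of the satellite glia, lymphocyte and platelet markers, led by Apoe, Cd4 and Pf4, were also lowest in replicate 2. Like the macrophage sum, they were highest in replicate 5. They were mostly single genes: Apoe at 9129 of 9568 TPM, Cd4 at 36.2 of 44.8 TPM and Pf4 at 68.9 of 71.3 TPM. Within the satellite glia list Apoe, Glul and Fabp7 were lowest in replicate 2, but Kcnj10 was highest there, at 32.9 TPM. These sums are thus no measure of those cell types as a whole. Division by these other sums was not done. Fermt3 and Parvg, the integrin adaptor genes of blood cells, were also lowest in replicate 2, at 13.4 and 10.6 TPM against means of 17.4 and 14.3 TPM. Of 8 lymphocyte markers 2 were detected, Cd4, which rat macrophages also carry, at 36.2 ± 7.398 and Cd8a at 7.93 ± 1.09 TPM, and the T cell genes Cd3d and Cd3e were at 0 in every library. The 4 alpha partners of beta2 summed to 142% ± 17.3 of the Itgb2 level and exceeded it in every library.

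Most members varied little between libraries. Of the 22 members at a mean of 10 TPM or more, 1 had a highest library at least 1.5 times its lowest, which was Itgb2 at 1.699-fold. Among all genes at that level, 2.22% passed the same limit. The median coefficient of variation was 5.87% for these 22 members and 4.49% for all 9425 genes at that level. In 2 of the 27 detected members, Itgb1 and Itgal, the highest or lowest library lay far from the other 4 by Dixon's criterion, which 5.58% of all detected genes met. Without replicate 2 the range of Itgb2 was 1.33-fold and no member passed the limit. edgeR's biological coefficient of variation, the spread left after counting error, was 5.92% at the median over 21 members and 4.98% over all 8871 genes in that fit. The 21 are those of the 26 members with usable reads that passed the filter on low counts. Lamc3, at 17.7%, and Itgb2, at 13.2%, had the highest values of these 21 members, and Itga5, at 3.41%, the lowest.

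Replicate 1 was the highest library for 6 and the lowest for 9 of the 27 detected members, and for 22.3% and 24.4% of all detected genes. Lama4, Lama2, Lama5 and Lamb2 were highest in replicate 1, while Lamc1, Itga6, Itgav and Itga1 were lowest there, and none of these 8 genes met Dixon's criterion. Lama4 was at 376 TPM in replicate 1 and between 273 and 321 TPM in the other libraries, and its mean without that library was 294 ± 19.9 TPM (SD, n = 4). The 8 Schwann cell markers summed to 6646, 7645, 7591, 7439 and 7364 TPM, lowest in replicate 1. Within that list the myelin gene Mbp was at 622, 873, 934, 1004 and 928 TPM, and Ngfr, a gene of immature Schwann cells, at 335, 289, 279.8, 254 and 271 TPM, highest in replicate 1. The 8 mural markers summed to 388, 368, 296, 299.8 and 215 TPM, highest in replicate 1 and lowest in replicate 5. Of these, 6 were detected, and Rgs5 and Kcnj8 were not. The sum was mostly Tagln and Acta2, at means of 149.9 and 109.7 TPM. Tagln, Acta2, Myh11 and Cnn1 were each highest in replicate 1. Pdgfrb went the other way, lowest in replicate 1 at 33.3 TPM and highest in replicate 2 at 39.1 TPM, and Cspg4 was also highest in replicate 2. The sum is thus no measure of mural cells as a whole. Divided by the mural sum, Lama4 ranged 1.53-fold between libraries, against 1.38-fold in TPM. Divided by the Schwann cell sum it ranged 1.54-fold. Itga1 went from 1.39-fold in TPM to 1.22-fold relative to the Schwann cell sum and to 2.25-fold relative to the mural sum. The ranges of Lama2, Lama5 and Lamb2 were wider relative to either sum than in TPM. The part of these cell types in the differences was not tested. The 7 fibroblast markers summed to between 1701 and 1746 TPM.

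**Figure D4:**
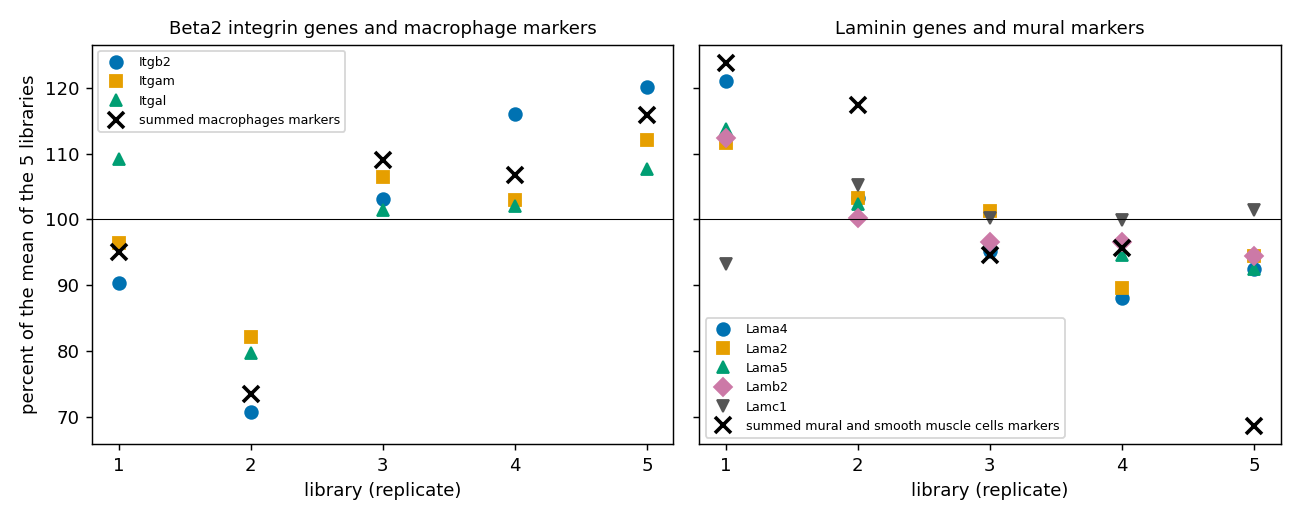
Level in each library as a percent of the mean of the 5 libraries, for Itgb2, Itgam and Itgal with the summed macrophage markers (left) and for Lama4, Lama2, Lama5, Lamb2 and Lamc1 with the summed mural markers, mostly Tagln and Acta2 (right). The 3 integrin genes and the macrophage sum are lowest in replicate 2, and 4 of the 5 laminin genes are highest in replicate 1, where Lamc1 is lowest.

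In the order of mean levels, 15 of the 26 neighbouring pairs of detected members had overlapping ranges. In 5 of these 15 the order was nonetheless the same in every library: Lamb1 above Lama4, Itgb4 above Itgb8, Lama2 above Lamc1, Itgal above Itgam and Itga8 above Lama3. In the other 10 the order changed between libraries. Lama4 and Itga7 had nearly equal means, 310.4 and 310.1 TPM, and Lama4 was the higher of them in 1 library. Itga6, Lamb2 and Itgav formed a run of overlapping ranges between 82.9 and 107 TPM. Itgb5 (27.8 to 32.1 TPM) and Itga3 (27.1 to 29.5 TPM) overlapped as well. Clear steps lay between Itgb1 and Lamb1, between Itga7 and Itgb4, and between Itgav and Lama5. Of the 31 pairs fixed for testing, 26 had both genes above the filter and 25 of these were called, the exception being Itgal and Itgam.

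**Figure D5:**
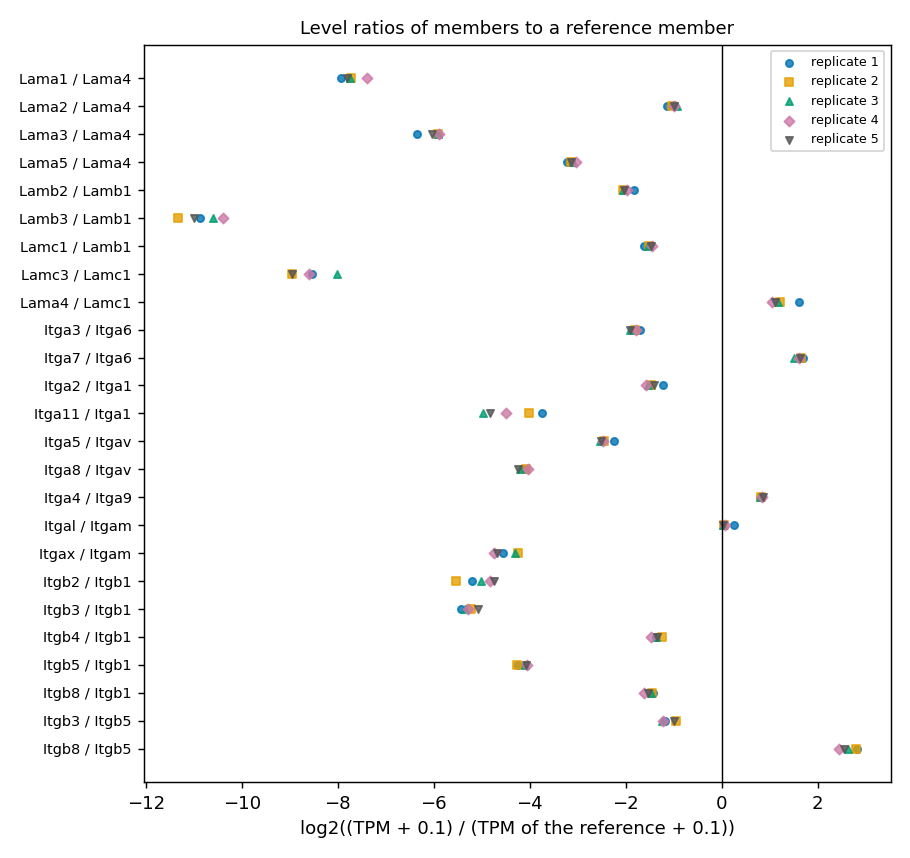
log2 ratio of each gene to its reference member, for 25 of the 26 tested pairs, 1 symbol per library, with a line at 0 (equal levels). The symbols of Itga4 over Itga9 lie closest together, with an SD of 0.02, and those of Lamb3, Lamc3 and Itga11 are spread most widely, with SDs of 0.36, 0.39 and 0.53.

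Several members had more than 1 transcript with reads. For Lama3, a transcript of 7735 bases held 79.1% ± 3.19 of the gene's TPM and one of 13370 bases 12.3% ± 1.38, and the gene is known for a short and a long form. For Itgb4, the leading transcript of 5890 bases held 85.6% ± 1.197, and for Itga6 one of 5964 bases held 91.7% ± 0.547. For Itga1 a transcript of 10483 bases held 68.8% ± 1.95 and one of 3963 bases 31.2% ± 1.95. The division of reads between transcripts of 1 gene is an estimate of the authors' model.

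Other genes of the basement membrane and of adhesion were mostly detected, against the share of 41.3% in the whole table. Of 12 basement membrane partners 9 were detected, led by Hspg2 (perlecan) at 216 ± 12.1, Col18a1 at 212 ± 7.97 and Nid2, a laminin linker, at 124 ± 3.86 TPM. The undetected ones were the collagen chains Col4a3, Col4a4 and Col4a6, at 0.566, 0.305 and 0.138 TPM. Of 18 genes of the dystroglycan complex and other laminin receptors 17 were detected. They were led by Dag1, the gene of dystroglycan, at 219.5 ± 14.8 TPM, the laminin alpha5 receptor gene Bcam at 155 ± 6.98 TPM and the syndecan gene Sdc3 at 151 ± 10.5 TPM. Of 23 integrin adaptors and kinases 22 were detected. Ilk, the integrin-linked kinase gene, was at 232 ± 4.29 TPM, the kindlin gene Fermt2 at 176 ± 5.01 TPM and the parvin gene Parva at 121 ± 2.08 TPM. Fermt1, the kindlin gene of epithelia, was not detected, at 0.0457 TPM. Of 18 other integrin ligands 15 were detected, led by fibronectin (Fn1) at 297 ± 11.5, osteopontin (Spp1) at 149 ± 9.66 and tenascin C (Tnc) at 95.4 ± 9.23 TPM. Vtn, the vitronectin gene, Npnt, the nephronectin gene, and Madcam1 were not detected, at 0.568, 0.566 and 0.157 TPM.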

How the data were processed

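RNA-seq of poly-A RNA from 5 cultures was used. Salmon 1.5.1, Trim Galore 0.6.6, cutadapt 2.8 and the rat build mRatBN7.2 are named in the submitters' processing notes. Not given in the sources used here: order of steps, strand setting and handling of multi-mapping reads. The authors deposited a combined table of gene-level TPM, which scales each library to 1000000, and this was the main source. For 98811 transcripts, the files deposited per library list a length, a TPM and an estimated count of reads made by the authors with Salmon, per the file headers. Transcripts were joined to genes through RefSeq accessions of GRCr8, without versions (67330 named, 68.1%). For 26 of the 37 members, and 19270 genes in all, the named TPM came within 10% of the gene TPM in every library. Their estimated counts were rounded and given to edgeR 4.0.16 (TMM, filterByExpr, intercept only). The other 11 members have no usable read count here: Lama2, Lamb1, Itga2, Itga2b, Itga9, Itga11, Itgal, Itgav, Itgax, Itgb1 and Itgb8.

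Ratios were tested with limma 3.58.1 (pseudocount 0.1 TPM, genes with mean TPM of at least 0.1, two-sided, Benjamini-Hochberg over all genes for each of 10 reference members, threshold 0.05). The scripts were tested on simulated data, where the reference gene of the ratio test was held constant, unlike in the libraries. The members, lists and pairs were chosen with earlier results of these data known. The values of 1 member and 1 pathway gene are not reported here. All other members are named, and of each pathway list the 3 highest and up to 3 lowest undetected genes. Single marker genes of cell types, and Fermt3 and Parvg, were named after their values were seen. Alternatives covered thresholds, pseudocounts, filters, transcript sums, scaling factors and left-out libraries.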

Additional observations from a re-analysis of the deposited data

Results flagged for a closer look

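In 9 of 95 sets of 5 library values, the highest or lowest library lay far from the other 4 by Dixon's criterion at 95%, which chance alone meets for about 1 set in 20. Of all genes detected in every library, 5.58% met it. The 95 sets are not independent, because the sums, shares and ratios among them are built from the same members. The count of 9 therefore cannot be set against either rate. Itgb1 was lowest in replicate 5, at 523 TPM against 537 to 540.1 TPM in the others. Itgal was lowest in replicate 2, at 9.09 TPM against 11.6 to 12.4 TPM, and so was the sum of the 4 alpha partners of beta2, at 18.3 against 22.99 to 24.7 TPM. Itgad was at 0.0214 TPM in replicate 2, from 1 read, and at 0 in the others, which alone meets the criterion. Replicate 1 set apart 5 values that involve Lama4, Itgav or Itgal. The alpha sum was 121% of the laminin beta sum. Itgav was 34.7% of the sum of Itgb3, Itgb5, Itgb6 and Itgb8. The log2 ratio of Lama3 to Lama4 was -6.35, that of Lama4 to Lamc1 1.61 and that of Itgal to Itgam 0.265.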

How the results depend on the processing

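With 1 group, no paired comparison of groups was possible, and members were compared with each other within each library. The count of detected members was between 22 and 29 under all alternatives, 22 with sums of named transcripts alone. The count of called pairs was 25 of 26 tested in the main limma setting and ran from 20 of 21 to 30 of 31 in the others. It was 0 by the exact sign-flip test, which over 5 libraries cannot go below p = 0.0625. Of 249 pair values under the other settings, 246 kept direction and call. The 3 that turned came from sums of named transcripts, which hold 0.1704% of the TPM of Itgav and, in replicate 2, 4.54 of the 9.09 TPM of Itgal: Itga5 over Itgav 6.52, Itga8 over Itgav 4.82 and Itgal over Itgam -0.11 in log2. The ratios over Itgav were still called, in the turned direction. Itga4 over Itga9 kept its direction but went to 7.14 in log2, where named transcripts hold 0.598% of the TPM of Itga9. Of 151 chain share values, 14 moved by more than the SD, 13 of them with transcript sums. The count of members with a highest library at least 1.5 times the lowest was 1. It was 5 at a limit of 1.3, 0 at a limit of 2, 2 with transcript sums (Itgb2 and Itgal) and between 0 and 1 without single replicates, 0 without replicate 2. The median edgeR coefficient of variation was between 4.67% and 6.53% without single replicates. Division by marker sums was added after the data were seen. Reads limit the members under 1 TPM, whose ratios rest on few reads.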
